A study of Homo sapiens with 6 samples.

Results

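The SUMO-2/3 peak list of daunorubicin (DNR)-treated HL-60 cells was compared with the list of mock-treated cells. These are 2 of the 6 samples of the series, 1 library each, and they held 44265 peaks in mock and 33355 peaks after DNR. HL-60 is a human acute myeloid leukaemia cell line. Cells were mock-treated or exposed to 1 µM DNR for 2 h, and chromatin carrying SUMO-2/3 was immunoprecipitated with 2 µg of antibody and sequenced. The precipitated DNA of 3 biological replicates was pooled before the library was made, so each condition has 1 library and no difference given here has a replicate check. The input libraries were not analysed here.

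SUMO-2 and SUMO-3 are small ubiquitin-like proteins that are attached to lysines of target proteins by an activating enzyme (SAE1 and UBA2), a conjugating enzyme and a set of E3 ligases, and are removed by SENP proteases. Many of their targets are transcription factors, chromatin proteins and histones, and SUMO-2/3 on chromatin is known to lie at the promoters of highly transcribed housekeeping genes, at tRNA genes and at sites bound by CTCF, the zinc finger protein that organises chromatin loops. DNR is an anthracycline that intercalates into DNA and traps topoisomerase II on it.

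A peak was a run of signal above a fixed value of 32, the same in each library, and the lists hold only its chromosome, start and end. Depth is unknown from the lists, and width was the only measure of strength. A missing peak therefore says that no run passed the threshold and not that SUMO-2/3 was absent, and a difference in depth or noise between the libraries cannot be told apart from an effect of DNR. A peak was called kept when it shared at least 1 bp with a peak of the other list, lost when a mock peak did not, and new when a DNR peak did not. A coding gene was called kept, lost or gained by its promoter peaks. These shared at least 1 bp with the window from 2 kb upstream to 1 kb downstream of a transcription start site (TSS) of the gene. For the place of a peak its midpoint was used. Intervals in parentheses are 95% intervals (Wilson for shares, exact Poisson for numbers and folds) and cover counting error only.

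3 kinds of sequence recurred in the peaks and are shown first. The first was the core consensus of CTCF, searched on both strands, which marked peaks found in both lists far more often than new DNR peaks. The following stretches (hg19, chosen after the values had been seen) show it in capitals, with 20 bases on each side. In the promoter peaks of DPP3 (chr11:66246554-66246607, minus strand), ACTL8 (chr1:18081744-18081797, plus strand) and COL8A2 (chr1:36565356-36565409, plus strand), the motif lay in overlapping mock and DNR peaks. In those of REPS1 (chr6:139309485-139309538, minus strand), NUDT17 (chr1:145589440-145589493, minus strand) and ESRRA (chr11:64071929-64071982, minus strand), it lay in a mock peak of 650, 600 and 550 bp that was lost. All 6 lie outside exons of coding transcripts.
DPP3: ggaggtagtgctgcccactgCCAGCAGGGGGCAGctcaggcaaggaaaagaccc
ACTL8: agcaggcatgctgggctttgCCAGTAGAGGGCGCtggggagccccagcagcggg
COL8A2: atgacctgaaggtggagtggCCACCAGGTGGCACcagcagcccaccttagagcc
REPS1: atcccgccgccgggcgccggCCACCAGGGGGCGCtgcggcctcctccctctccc
NUDT17: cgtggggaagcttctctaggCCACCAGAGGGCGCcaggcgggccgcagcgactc
ESRRA: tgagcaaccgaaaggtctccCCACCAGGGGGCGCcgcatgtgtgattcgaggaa

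The second kind was tracts of alternating CA or TG, which were frequent in the widest DNR peaks. Capitals mark runs of at least 6 bases of alternating C and A or T and G, a measure added after the data had been seen. The 120 central bases are given on the plus strand of hg19, outside exons of coding transcripts, for a new DNR peak 4.58 kb from the TSS of RTP5 (chr2:242807241-242807360). The same is given for the peaks gained by FCMR (chr1:207097641-207097760) and UBE2QL1 (chr5:6447741-6447860), and for peaks found in both lists near PPP6R2 (chr22:50777116-50777235) and in an intron of BCL2 (chr18:60866091-60866210).
RTP5: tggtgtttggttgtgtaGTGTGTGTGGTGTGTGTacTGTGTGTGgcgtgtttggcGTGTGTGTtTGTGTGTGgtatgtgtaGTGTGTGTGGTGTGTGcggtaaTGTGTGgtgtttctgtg
FCMR: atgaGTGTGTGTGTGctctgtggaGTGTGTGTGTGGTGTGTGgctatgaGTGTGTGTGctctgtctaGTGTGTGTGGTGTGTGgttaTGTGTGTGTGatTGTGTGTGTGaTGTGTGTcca
UBE2QL1: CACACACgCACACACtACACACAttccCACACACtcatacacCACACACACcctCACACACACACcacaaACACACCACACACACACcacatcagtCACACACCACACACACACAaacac
PPP6R2: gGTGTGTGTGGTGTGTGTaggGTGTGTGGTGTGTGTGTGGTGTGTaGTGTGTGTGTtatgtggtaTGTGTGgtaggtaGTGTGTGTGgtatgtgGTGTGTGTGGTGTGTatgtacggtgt
BCL2: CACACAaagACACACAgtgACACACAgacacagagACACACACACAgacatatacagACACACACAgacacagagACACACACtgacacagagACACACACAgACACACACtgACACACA

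The third kind was promoter sequence with GC boxes (GGGCGG) or CCAAT boxes, shown for widely peaked promoters that lost or kept a mock peak. Of these, the whole H4C3 peak had 47% GC and no GC box, and the other 4 had 57.5 to 63.1% GC. Capitals mark these motifs on either strand, and in NDUFS7 also the B box of tRNA genes, the internal promoter element of RNA polymerase III, which matches there on the opposite strand. CFAP20 (chr16:58163286-58163405, minus strand), ENSA (chr1:150601621-150601740, minus strand), H4C3 (chr6:26104001-26104120, plus strand) and ICAM1 (chr19:10381476-10381595, plus strand) lost their peak. NDUFS7 (chr19:1383301-1383420, plus strand) kept its peak and ranked first among kept promoters by the narrower of its mock and DNR peaks. All 5 stretches lie outside exons of coding transcripts.
CFAP20: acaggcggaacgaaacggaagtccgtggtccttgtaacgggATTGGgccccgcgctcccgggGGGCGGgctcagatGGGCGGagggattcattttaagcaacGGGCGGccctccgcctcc
ENSA: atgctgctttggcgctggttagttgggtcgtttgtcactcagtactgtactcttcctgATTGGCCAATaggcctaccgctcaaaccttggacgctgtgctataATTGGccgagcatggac
H4C3: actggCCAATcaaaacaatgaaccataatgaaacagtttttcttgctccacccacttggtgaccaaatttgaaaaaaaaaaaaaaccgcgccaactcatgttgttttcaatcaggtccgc
ICAM1: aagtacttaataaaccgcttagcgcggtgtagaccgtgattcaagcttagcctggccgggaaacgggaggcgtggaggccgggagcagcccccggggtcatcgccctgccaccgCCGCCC
NDUFS7: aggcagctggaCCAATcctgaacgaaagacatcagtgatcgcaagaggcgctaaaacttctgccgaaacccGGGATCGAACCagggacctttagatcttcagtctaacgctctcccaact

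Few peaks were found in both lists. Of the mock peaks, 1497 (3.38%, 3.22 to 3.55) overlapped a DNR peak, and of the DNR peaks, 1495 (4.48%, 4.27 to 4.71) overlapped a mock peak, which left 31860 new DNR peaks. An even spread of the other list over the sequenced genome would give 0.443% and 0.588%, so the observed shares were 7.63- and 7.62-fold higher. Among peaks of at least 200 bp, 21191 in mock and 14589 after DNR, 787 mock peaks (3.71%) and 789 DNR peaks (5.41%) were kept, 15.3- and 15.4-fold over an even spread, and 13800 DNR peaks were new.

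Wide peaks were kept more often than narrow ones. Of DNR peaks of 150 bp, the shortest run that could be called, 2.50% were kept, against 4.42% at 200 bp, 9.11% at 250 bp, 15.8% at 300 to 350 bp and 26.1% at 400 bp or more. The mock list rose through the same classes, from 1.65% to 18.1%. The share also differed by place. At coding promoters 13.7% (12.2 to 15.5) of DNR peaks were kept, against 3.60% in exons, 3.01% in introns and 3.87% between genes. In noncoding genes 7.04% of DNR peaks were kept. Mock peaks differed less by place and were kept most often in noncoding genes, at 5.68% (5.14 to 6.26), followed by promoters at 4.17% (3.67 to 4.74), the space between genes at 3.23%, introns at 2.47% and exons at 2.47%. A 10-Mb part of chromosome 8 that holds MYC and is dense in peaks in both lists carried 268 of the kept mock peaks (17.9%) and 694 of the new DNR peaks (2.18%). Without it, 2.85% of mock and 3.78% of DNR peaks were kept.

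**Figure D1:**
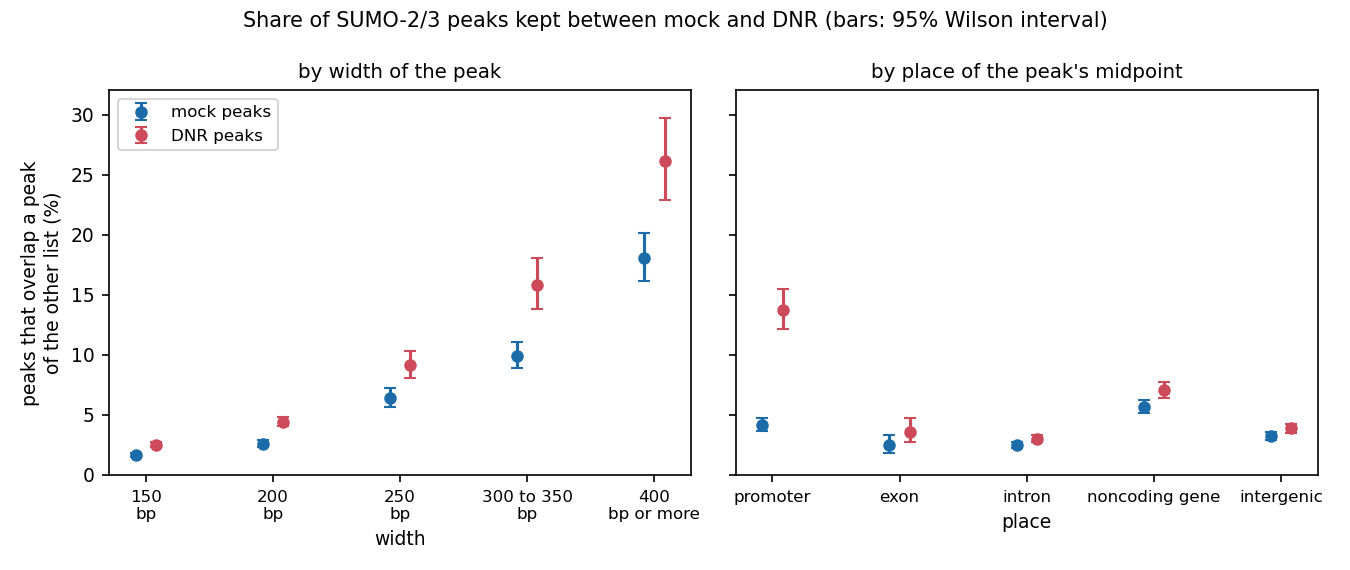
Share of peaks (percent, with Wilson intervals) that overlap a peak of the other list, by peak width and by place, for mock and DNR peaks. The share rose from 1.65% to 18.1% in mock and from 2.50% to 26.1% in DNR from the narrowest to the widest class.

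At coding promoters far more genes lost a peak than gained one. Of 19811 coding genes, 5003 carried a promoter peak in mock (25.3%) and 1667 did after DNR (8.41%). Of all coding genes, 693 kept a peak (3.50%), 4310 lost it (21.8%) and 974 gained one (4.92%). Of the genes with a mock peak, 13.9% (12.9 to 14.8) also had one after DNR, and of the 14808 without, 6.58% (6.19 to 6.99) did, a gap of 7.27 points (6.26 to 8.33). With peaks of at least 200 bp, 320 genes (1.62%) kept, 3145 (15.9%) lost and 526 (2.66%) gained a peak, out of 3465 with a mock peak and 846 with a DNR peak.

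A kept gene did not always carry the same peak. In 253 of the 693 kept genes (36.5%) a mock and a DNR promoter peak overlapped, and in the other 440 they lay apart. Genes whose widest mock peak was 150 bp kept a peak in 10.9% of cases and an overlapping one in 1.56%, while at 400 bp or more these were 24.1% and 15.8%. Genes with several start sites had more room for both events. With a combined window of 6 kb or more, 20.5% of mock genes kept and 11.3% of other genes gained a peak, against 11.2% and 5.12% with 1 window of 3 kb.

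Lost and kept genes were more often CpG-rich and paired than gained genes. Both traits were read at the 5′-most TSS of each gene, which need not be the TSS with the peak. It was CpG-rich in 77.0% (75.8 to 78.3) of lost and 75.2% (71.8 to 78.3) of kept genes, whose intervals overlap, against 62.0% (58.9 to 65.0) of gained and 55.8% (55.0 to 56.7) of genes with no peak in either list. A divergent partner, a coding gene on the other strand starting within 1 kb upstream, was found for 18.4% of lost, 16.9% of kept and 7.08% of gained genes, against 8.99% of genes with no peak. One peak then counts for both partners, and 13.9% of mock but 6.62% of DNR promoter peaks served at least 2 genes.

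Kept promoters were ranked by the narrower of their widest mock and widest DNR peak. The first was NDUFS7, a subunit of respiratory complex I, with 650 bp in mock (chr19:1383301-1383950) and 700 bp after DNR (chr19:1383301-1384000). It was the single case among the 8 widest kept entries in which the DNR peak was the wider one. BORCS8, MEF2B and RFXANK, which share a locus, had 500 bp in both lists. MEF2B is a transcription factor of B cells and RFXANK a subunit of the RFX complex at MHC class II promoters. PDE4A, a cyclic AMP phosphodiesterase, went from 950 to 500 bp and TSPOAP1 from 2150 to 500 bp. MAST1 and RTBDN had 650 and 450 bp, PLXDC1 had 450 bp in both lists, ZNF335 had 500 and 450 bp, and METTL26 had 450 and 400 bp.

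The widest lost peaks included several at genes of histones and chromatin proteins. ARID1A, the DNA-binding subunit of the SWI/SNF remodelling complex, had 1200 bp in mock and no DNR peak of at least 200 bp, although a 150-bp DNR peak lay at another of its start sites (chr1:27053651-27053800). The histone genes H4C3, with 900 bp, H1-4 and H2BC5, which share 850 bp, and H1-2, with 800 bp, had no DNR peak of any width. HMGN4, a nucleosome-binding protein, had 900 bp in mock, C18orf32 and CFAP20 850 bp, and ENSA, an inhibitor of the phosphatase PP2A in mitosis, 800 bp. None of these 4 had a DNR peak.

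No histone gene was among the widest gained peaks. FCMR, the Fc receptor for IgM, and UBE2QL1, a ubiquitin-conjugating enzyme-like protein, gained 1000 bp each. MMEL1, a membrane metalloendopeptidase, gained 850 bp and PDE10A, a cyclic nucleotide phosphodiesterase, 650 bp. PAM16, a component of the mitochondrial protein import motor, gained 550 bp, CALY 500 bp and CYP4F12, a cytochrome P450, 450 bp. ACTL8 gained 450 bp among peaks of at least 200 bp but had a 150-bp mock peak. The CA/TG runs defined above made up 74.1% of the UBE2QL1 peak, 54.7% of the FCMR peak, 49.0% of the CALY peak and 32.8% of the MMEL1 peak, but 12% at CYP4F12, 5.45% at PAM16, 3.11% at ACTL8 and 0 at PDE10A.

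The genes that the study followed split between the classes. NFKB2, the p100/p52 subunit of NF-kB, had a 450-bp mock peak (chr10:104153651-104154100) and a 150-bp DNR peak (chr10:104154551-104154700) that did not overlap, so it was kept over all peaks and lost over peaks of at least 200 bp. The adhesion molecule ICAM1 had 2 mock peaks, the wider of 550 bp (chr19:10381101-10381650), and no DNR peak. IER3, an early response gene, had 2 mock peaks of up to 300 bp and EGR1, an immediate-early zinc finger factor, 1 of 150 bp (chr5:137799901-137800050), and neither had a DNR peak. MYC had 6 mock peaks of up to 1250 bp and 2 DNR peaks of up to 250 bp, some of which overlapped. CXCL10 and FOSB had no promoter peak in either list.

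Gene families were taken from lists of 37 groups, and a family is read against the shares of all coding genes given above. Over all coding genes with a mock peak 86.1% lost it and 13.9% kept one. The interval of the kept share left out 13.9% in the mitochondrial ribosomal protein genes (2.17%, 0.385 to 11.3), below it, and in the immediate-early genes, above it, and in no other family of the 37. For the mitochondrial ribosomal protein genes this did not hold in the alternatives, with 0 to 10.7% against 9.24% overall at 200 bp or more and 0.479 to 13.8% against 11.1% with the window ending at the TSS. Family numbers are genes, so that "lost 29 of 31" means that 31 genes had a mock peak and 29 of them had none after DNR. Of the 66 replication-dependent histone genes, which are transcribed in S phase, 40 had a mock peak, 36 lost it, 4 kept one and 2 gained one. The mock peaks of these genes came from 51 sites and their DNR peaks from 4. Among those with both, H4C8 had 950 bp in mock and 200 bp after DNR, H2AC6 500 and 300 bp and H4C5 250 and 200 bp. H2BC10 and H3C8 gained 150 bp, so over peaks of at least 200 bp no histone gene gained one.

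Ribosomal protein genes come in a cytoplasmic and a mitochondrial set. Of the 88 cytoplasmic ribosomal protein genes, 38 had a mock peak, 35 lost it, 3 kept one (7.89%, 2.72 to 20.8) and 1 gained one. RPL17 and RPL5 lost 500 bp each, RPL10A went from 450 to 200 bp, RPS7 from 300 to 150 bp, RPL11 had 200 bp in both, and RPL28 gained 150 bp. Of the 78 mitochondrial ribosomal protein genes 46 had a mock peak (59.0%), of which 45 were lost, among them those of MRPL1 and MRPL40 at 400 bp. MRPS18C, with 300 and 150 bp, was the one that kept a peak, and MRPS25 gained 250 bp. The translation factors (EIF and EEF genes) lost 29 of 31. The aminoacyl-tRNA synthetases, which charge tRNAs, lost 15 of 20, with MARS1 and WARS1 at 400 bp among the lost and EARS2, at 300 and 350 bp, and RARS1, at 250 and 200 bp, among the kept, and gained 0.

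RNA processing and protein turnover followed. All 23 spliceosome genes with a mock peak lost it (kept share up to 14.3%), SNRPE and SF3A3 at 400 bp among them, while 2 others gained one, SRSF10 being one of these. The hnRNP genes lost 13 of 14, with HNRNPC at 550 bp and HNRNPU at 450 bp, and HNRNPF kept one at 550 and 200 bp. DEAD-box helicases lost 17 of 20. Proteasome subunits lost 16 of 20 and kept 4, PSMD9 with 500 and 300 bp and PSMD3 with 250 and 200 bp. Ubiquitin enzymes lost 23 of 27 and gained 5, and UBE2L3, a conjugating enzyme, kept 350 bp in both lists. Heat shock proteins and chaperones lost 32 of 38, including DNAJA1 at 550 bp and HSP90AB1 at 400 bp, and kept 6, including the stress-induced HSPA6 at 350 and 200 bp. Respiratory chain genes lost 29 of 32 and nucleoporins 17 of 18, TPR at 350 bp among the latter.

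All 5 genes of the SUMO pathway itself with a mock peak lost it, and 2 others gained one. The lost ones were at USPL1 (700 bp) and SENP1 (500 bp), both SUMO proteases, at the E3 ligase PIAS4 (200 bp) and at the deSUMOylating isopeptidase DESI2 (150 bp), with 1 further gene. Among the gained was SAE1, a subunit of the activating enzyme, with 200 bp (chr19:47633501-47633700). With 28 genes in the list, 2 gained is 8.70% (2.42 to 26.8) of those without a mock peak, and the interval includes the 6.58% of all coding genes.

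**Figure D2:**
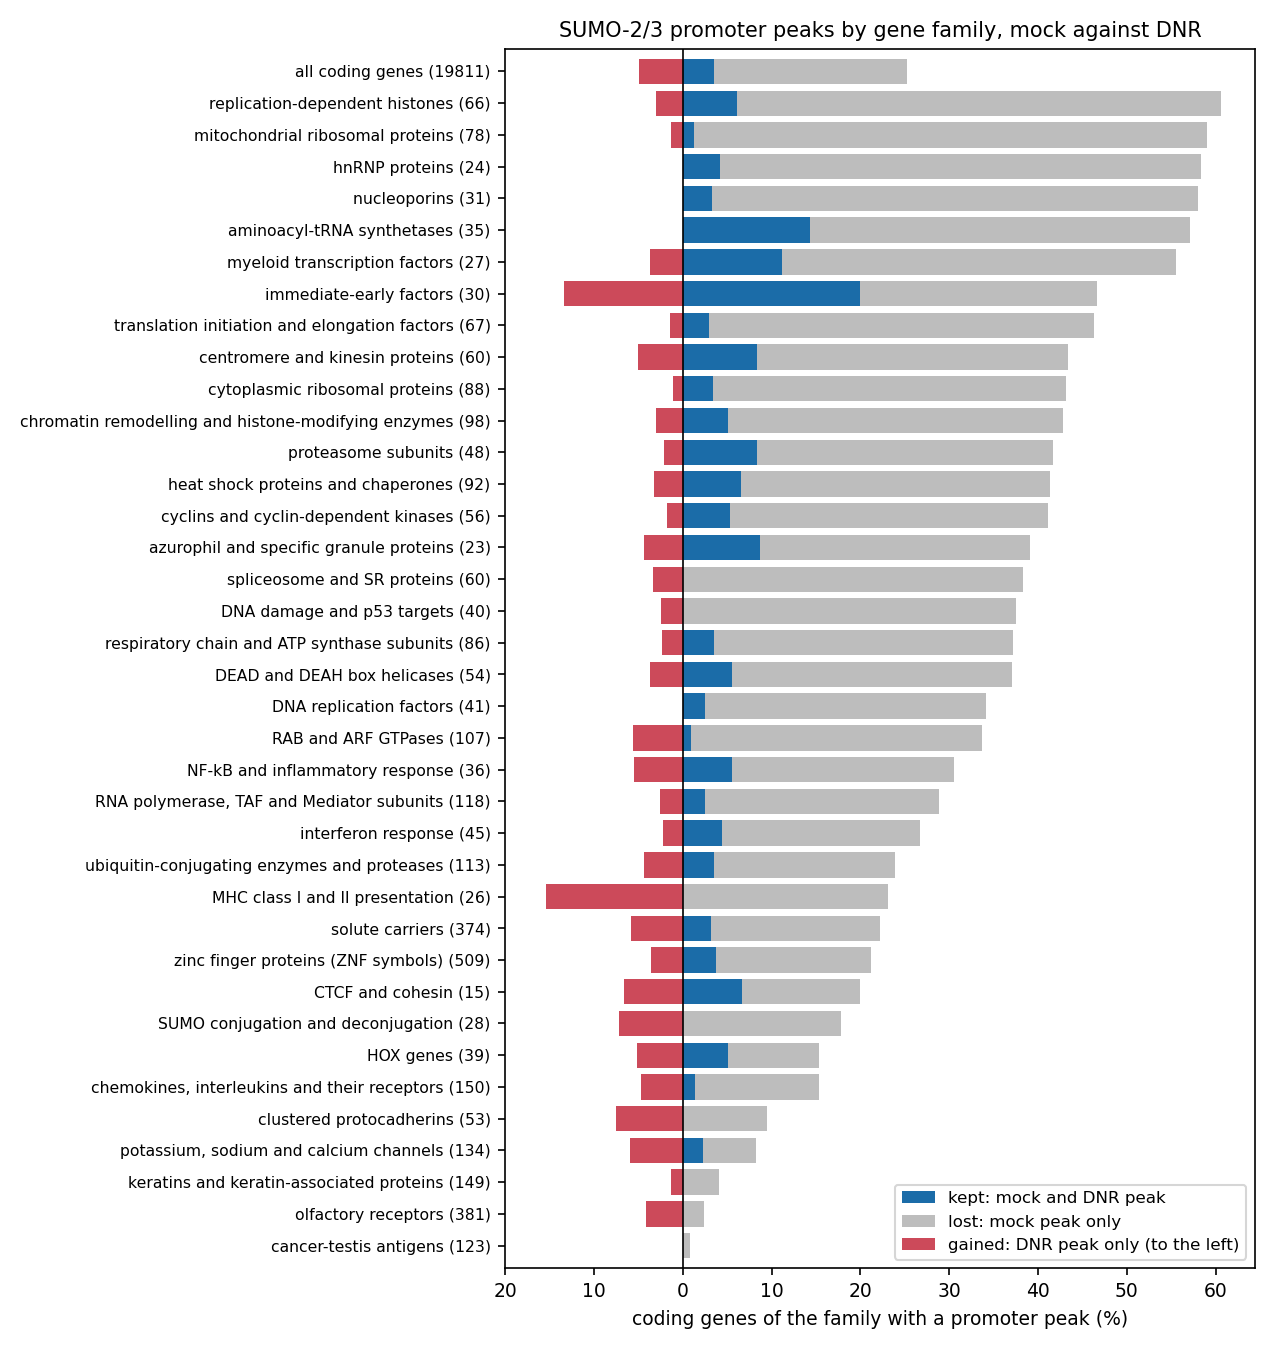
Percent of the coding genes of each family (number in brackets) that kept (blue) or lost (grey) a SUMO-2/3 promoter peak, stacked to the right, or gained one (red), to the left, over all peaks. Mock peaks reach 60.6% of histone genes and 59.0% of mitochondrial ribosomal protein genes, while olfactory receptor genes show more gained (16) than lost (9). The 16 are 4.30% of olfactory receptor genes without a mock peak, against 6.58% of all coding genes.

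Chromatin regulators lost 37 of 42, including HDAC2 at 450 bp and SMARCE1 at 550 bp, and kept 5, including the histone methyltransferase SETD1A at 300 and 200 bp. HDAC10 gained 250 bp. RNA polymerase, TAF and Mediator genes lost 31 of 34. Of the CTCF and cohesin genes 3 had a mock peak, and STAG2, a cohesin subunit, kept 250 and 300 bp. Replication factors lost 13 of 14, including PCNA at 450 bp, CDC45 at 400 bp and CDC6 at 350 bp, and POLD4 kept 250 and 200 bp. Cyclins and their kinases lost 20 of 23. CDK6 was lost at 350 bp, CCND3 was kept at 350 and 250 bp, and CDC25B gained 250 bp. Centromere and kinesin genes, which act in mitosis, lost 21 of 26, kept 5 and gained 3.

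All 15 DNA damage response genes with a mock peak lost it, and the interval of their kept share, up to 20.4%, includes the 13.9% of all coding genes. ATR, the checkpoint kinase, was the widest at 300 bp, and DDB2, FDXR and PPM1D, targets of p53, had 250 bp. The single gain was at TOP2A, the gene of topoisomerase II alpha, with 200 bp (chr17:38573451-38573650). Genes of NF-kB signalling lost 9 of 11, with BIRC3 at 250 bp and CXCL3 at 200 bp, kept TRAF1 at 200 bp in both lists, and gained TNFAIP3 and TRAF2 at 200 bp. Interferon response genes lost 10 of 12, with IFIT1 and IRF7 at 200 bp among them. IFIT3, at 150 and 200 bp, and IRF9, at 150 bp in both, were kept, and OAS1 gained 150 bp.

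The immediate-early genes, which respond within minutes to growth factors and stress, kept and gained peaks more often than all coding genes did. Of the 14 genes with a mock peak 6 kept one (42.9%, 21.4 to 67.4), 4 of them with overlapping peaks, and 4 of the 16 genes without one gained a peak (25%, 10.2 to 49.5), against 13.9% and 6.58% over all coding genes. KLF4 had the same 200 bp in both lists (chr9:110252501-110252700). DUSP1, a MAP kinase phosphatase, had 550 bp in mock (chr5:172199101-172199650) and 200 bp inside it after DNR (chr5:172199451-172199650). NR4A1, an orphan nuclear receptor, had 250 and 200 bp, and ATF3 had 150 and 300 bp. JUN, at 650 bp, NR4A3, at 250 bp, and FOSL2, IER2 and KLF6, at 150 bp, lost theirs. JUNB gained 250 bp (chr19:12903201-12903450), EGR3 200 bp, and DUSP5 and FOSL1 150 bp. Over peaks of at least 200 bp, 4 of 8 genes kept and 3 gained a peak, and without MYC, 5 kept one over all peaks. The gains depended on the window, because from 2 kb upstream to the TSS 5 of 13 genes kept a peak but only 1 gained one. No test was possible, and 37 families were read side by side.

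Myeloid genes, which mark the lineage of HL-60, lost their peaks about as often as the 86.1% over all mock genes. Among granule protein genes, 7 of 9 were lost. MPO, myeloperoxidase, had 4 mock peaks, the widest of 650 bp (chr17:56358901-56359550), and none after DNR, and AZU1 lost 450 bp. CTSG, cathepsin G, had 200 and 150 bp, and ELANE, neutrophil elastase, had none in mock and gained 200 bp (chr19:850001-850200). Myeloid transcription factors lost 12 of 15, GFI1 and LMO2 at 450 bp and RUNX1 at 300 bp, and FLI1 gained 150 bp. All 6 MHC genes with a mock peak lost it, with TAP2 at 350 bp and HLA-DMA at 200 bp, and 4 others gained one, with HLA-DOB at 250 bp, HLA-DMB and HLA-E among them. MHC genes are polymorphic and near-identical copies exist, and how well reads can be placed there was not tested. The 4 gains are 20% (8.07 to 41.6) of the MHC genes without a mock peak, against 6.58% of all coding genes. At 200 bp or more (2.32 to 25.8, against 3.22%) and with the window ending at the TSS (4.54 to 32.1, against 4.68%) the interval included the overall share.

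Several families that act mainly in other tissues had few mock peaks. Of the 381 olfactory receptor genes, 9 had a mock peak, all lost, and 16 gained one, and over peaks of at least 200 bp, 5 losses and 5 gains. The 16 gains are 4.30% (2.66 to 6.87) of those without a mock peak, against 6.58% of all coding genes. At 200 bp or more this share was 1.33% (0.569 to 3.07), against 3.22% of all coding genes. With the window ending at the TSS it was 2.12% (1.08 to 4.12), against 4.68%. Protocadherins lost 5 and gained 4 of 53 (1 and 2 at 200 bp or more), ion channel genes lost 8, kept 3 and gained 8 of 134, and HOX genes lost 4, kept 2 and gained 2 of 39. Keratin genes lost 6 and gained 2 of 149, and of 123 cancer-testis genes 1 had a mock peak, which was lost, and 0 gained one. The large zinc finger (ZNF) family, which holds many repressors, lost 89 of 108, kept 19 and gained 18. ZNF335 is among the widest kept peaks, ZNF595 had 750 and 250 bp, ZNF343 had 250 and 300 bp, and ZNF518A lost 800 bp. Solute carriers lost 71, kept 12 and gained 22 of 374. Chemokine and cytokine genes and their receptors lost 21 of 23, with IL6R at 400 bp, and gained 7, with CXCL12 and CCL22 at 200 bp. RAB and ARF GTPases lost 35 of 36, kept RAB27A at 200 and 250 bp, and gained 6.

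New DNR peaks lay only slightly more often at promoters than an even spread gives. Of the 31860, 4.39% (4.17 to 4.62) had their midpoint in a promoter window, which makes up 2.72% of the sequenced genome (1.62-fold). Exons held 4.20% (1.76-fold), introns 42.2% (1.03-fold, but under the genome's share at 200 bp or more), noncoding genes 15.4% (0.948-fold) and the space between genes 33.8% (0.902-fold). Lost mock peaks were at promoters in 11.9% (4.39-fold) and kept DNR peaks in 14.9% (5.49-fold). The median distance to the nearest coding TSS was 52.7 kb for new DNR, 35.5 kb for lost mock and 30.1 kb for kept DNR peaks. At 200 bp or more, 4.71% of new DNR and 15.9% of lost mock peaks were at promoters, so the difference was wider among wide peaks.

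Lost and kept peaks piled up just upstream of the TSS, and new ones did not. In the 250 bp before the TSS, lost mock peaks reached 12.6-fold (12 to 13.3) of an even spread, kept mock peaks 15.3-fold and kept DNR peaks 14.1-fold. New DNR peaks were at 1.38-fold (1.14 to 1.65) there. Their highest bin lay from 500 to 250 bp upstream, at 2.28-fold (1.94 to 2.66).

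**Figure D3:**
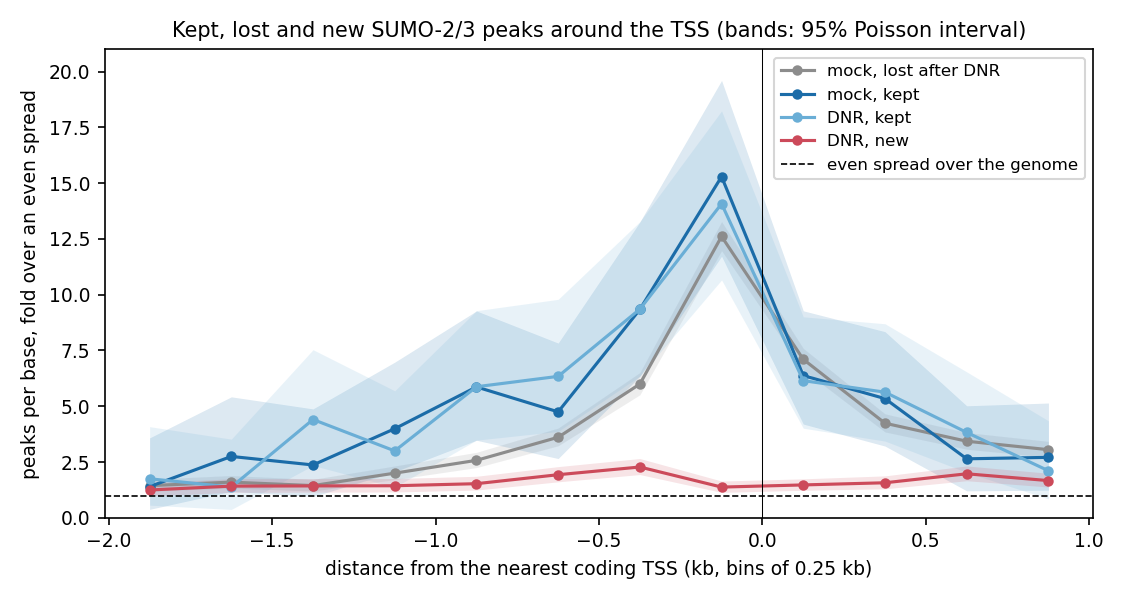
Peaks per base around the nearest coding TSS, as a fold of an even spread (y axis) in bins of 250 bp (x axis, distance in kb), for lost mock, kept mock, kept DNR and new DNR peaks, with Poisson bands. The first 3 sets peak at 12.6- to 15.3-fold just before the TSS, where new DNR peaks are at 1.38-fold.

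New DNR peaks were more frequent near chromosome ends. The terminal 1 Mb at each end of the chromosomes held 3.02% of them, against 1.60% of the sequenced genome and 1.94% of lost mock peaks, and 3.75% at 200 bp or more. Kept DNR peaks were higher still, at 4.28%. Within 100 kb of an assembly gap lay 2.15% of new and 5.69% of kept DNR peaks but 1.14% of lost mock peaks, against 1.5% of the genome. Over whole chromosomes, new DNR peaks were densest on chromosomes 22 (34.6 per Mb), 18 (34.4 per Mb) and 13 (30.3 per Mb) and sparsest on X (1.16 per Mb). The mock list was dense on the same 3 autosomes, and the ratio of DNR to mock peaks ran from 0.562 on X to 0.933 on 18, 0.975 on 21 and 0.981 on 22. Chromosome Y, with 31 mock and 58 DNR peaks, was the one chromosome with more peaks in the DNR list. These numbers are small, and whether the reads placed on Y come from a Y chromosome was not tested.

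**Figure D4:**
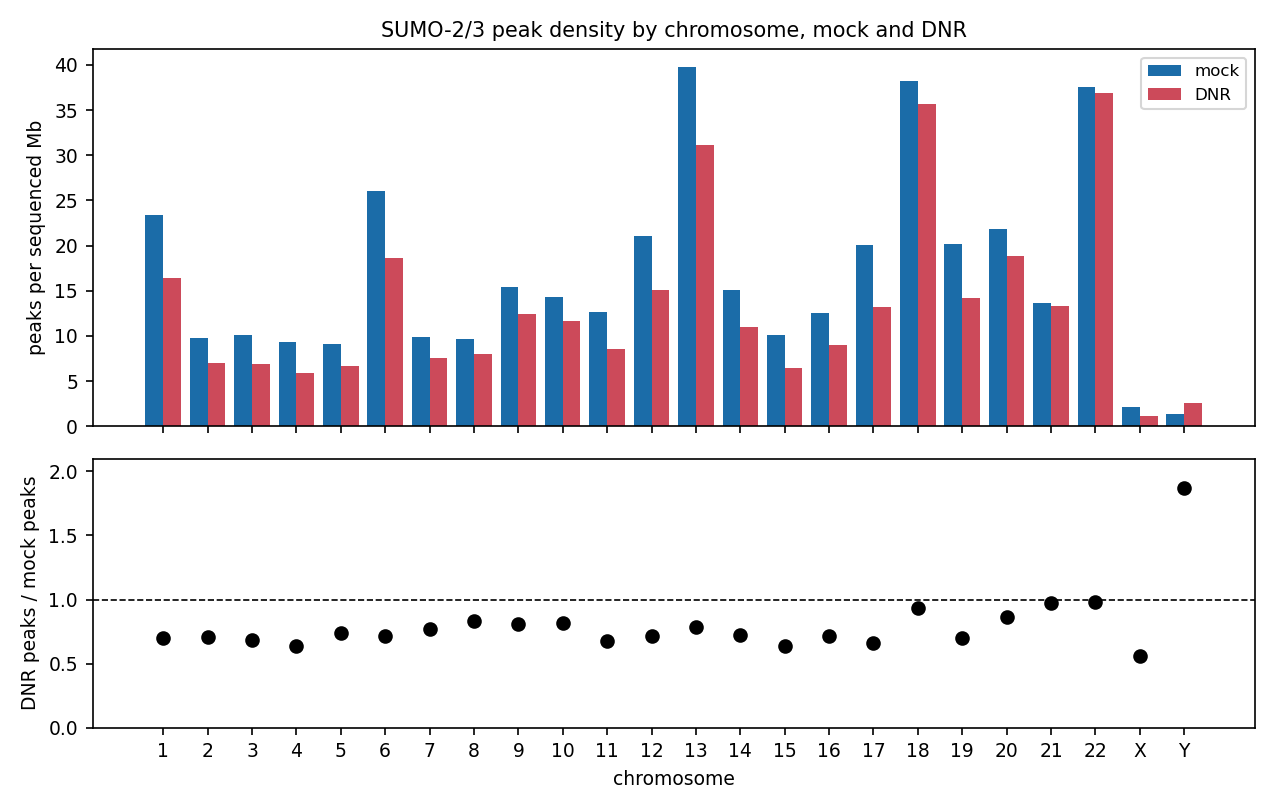
Peaks per Mb of sequenced bases by chromosome in mock and after DNR (upper panel, bars), and the number of DNR peaks over mock peaks (lower panel, points, with a dashed line at equal numbers). Chromosomes 13, 18 and 22 are densest in both lists, and the ratio lies at 0.562 on X and 0.981 on 22.

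CTCF motifs set the kept peaks apart from the new ones. The core consensus was found in 9.69% (8.29 to 11.3) of kept mock, 7.43% (6.21 to 8.87) of kept DNR and 2.30% (2.17 to 2.45) of lost mock peaks, and in 0.232% (0.185 to 0.291) of new DNR peaks. Windows of the same width 2 kb away held it in 0.0596% of cases for lost mock and 0.0660% for new DNR peaks, so new peaks were 3.52-fold over their flanks. It was in 0.0341% of 714652 genomic tiles of 200 bp. As a promoter background, 1 stretch of 200 bp just upstream of the 5′ end of each coding gene was searched, and 0.298% of these held it. In 107 of the 1497 kept mock peaks the same motif lay inside the overlapping DNR peak, as at DPP3, ACTL8 and COL8A2 printed above. Among lost mock peaks its share was 0.965% at 150 bp, highest at 300 to 350 bp with 7.53%, and lower again at 400 to 650 bp with 5.47% and at 700 bp or more with 1.79% (1 of 56). New DNR peaks were at 0.175% at 150 bp and 0.990% (0.386 to 2.52) at 400 to 650 bp. Neither NFKB2 peak held a match to these letters. The paper's CUT&RUN data place CTCF together with SUMO-2/3 at the NFKB2 promoter, so a missing match does not mean missing CTCF.

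The B box consensus of tRNA genes, which RNA polymerase III transcribes, was also more frequent in kept than in new peaks. No tRNA annotation was used, and matches are to the letters alone. The consensus (both strands, added after the data had been seen) was in 31 kept mock peaks (2.07%, 1.46 to 2.93), 24 kept DNR peaks (1.61%), 100 lost mock peaks (0.234%) and 14 new DNR peaks (0.0439%). The flanks of new DNR peaks held it at 0.0345%, tiles at 0.0423% and the stretches just upstream of coding genes at 0.172%. At promoters, 9 of 222 kept mock peaks (4.05%) held one, NDUFS7 among them. Of lost mock peaks at promoters, 34 of 5100 (0.667%) did, HMGN4 among them.

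At coding promoters, lost and kept peaks were richer in GC boxes and ETS sites than new ones. The median GC content was 59.3% in lost mock peaks, 59.5% in kept DNR peaks and 54.0% in new DNR peaks. The GC box was in 32.7% of lost mock peaks against 9.34% of their flanks (3.50-fold), and in 15.9% of new DNR peaks against 11.4% (1.4-fold). The 200-bp stretches just upstream of coding genes held it in 43.2%, but they differ from the peaks in width and place. Kept mock peaks held it in 42.8% (36.5 to 49.4) and kept DNR peaks in 30.0% (24.4 to 36.4). The CCAAT box was near its flanks in each set, 0.974-fold in lost (24.3%), 1.05-fold in kept mock (30.2%) and 1.00-fold in new peaks (19.8%). The ETS site (CCGGAAG) was in 9.57% of lost against 1.23% of flanks (7.81-fold), in 2.07% of new against 1.04% (2.00-fold), in 12.6% (8.87 to 17.6) of kept mock peaks and in 5.65% of those upstream stretches. The cyclic AMP response element (TGACGTCA) was 7.79-fold over flanks in lost peaks, at 1.45%, and at 0.143% in both new peaks and their flanks, with 1.15% of those upstream stretches. The AP-1 site (TGANTCA), bound by FOS and JUN proteins, was under its flanks in both, 0.70-fold in lost and 0.719-fold in new peaks. In kept peaks it was at 1.14-fold in mock, where the interval (4.48 to 11.4%) includes the flanks, and at 0.957-fold after DNR. Away from promoters the E-box (CACGTG) was in 2.89% (2.71 to 3.08) of new DNR and 2.61% (2.46 to 2.78) of lost mock peaks, 1.37- and 1.32-fold over flanks, with 1.8% of genomic tiles. All motifs were searched on both strands, and a match is a string of letters, not proof of binding.

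Tracts of CA or TG repeats were more frequent in new DNR peaks than in lost mock peaks. Peaks with at least 20% of their bases in such runs made up 2.04% (1.89 to 2.20) of new DNR peaks, 650 in number, against 0.499% of their flanks (4.09-fold), 0.449% of lost mock peaks and 0.316% of genomic tiles. Kept peaks held them at 3.07% in mock and 2.74% after DNR. The share among new DNR peaks rose with width to 61.5% (49.4 to 72.4) at 700 bp or more, 40 of 65, where the flanks were at 0.775%, while 0 of 56 lost mock peaks of that width were rich in them. Kept DNR peaks of that width were at 32.3%, 10 of 31. Of these 650 new peaks, 65 (10%, 7.92 to 12.5) lay in the terminal 1 Mb of a chromosome, against 2.88% (2.70 to 3.07) of the other new peaks, and 2.62% lay at coding promoters, against 4.43%. The reads were 50 bases long, and how well they can be placed in repeats was not tested.

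**Figure D5:**
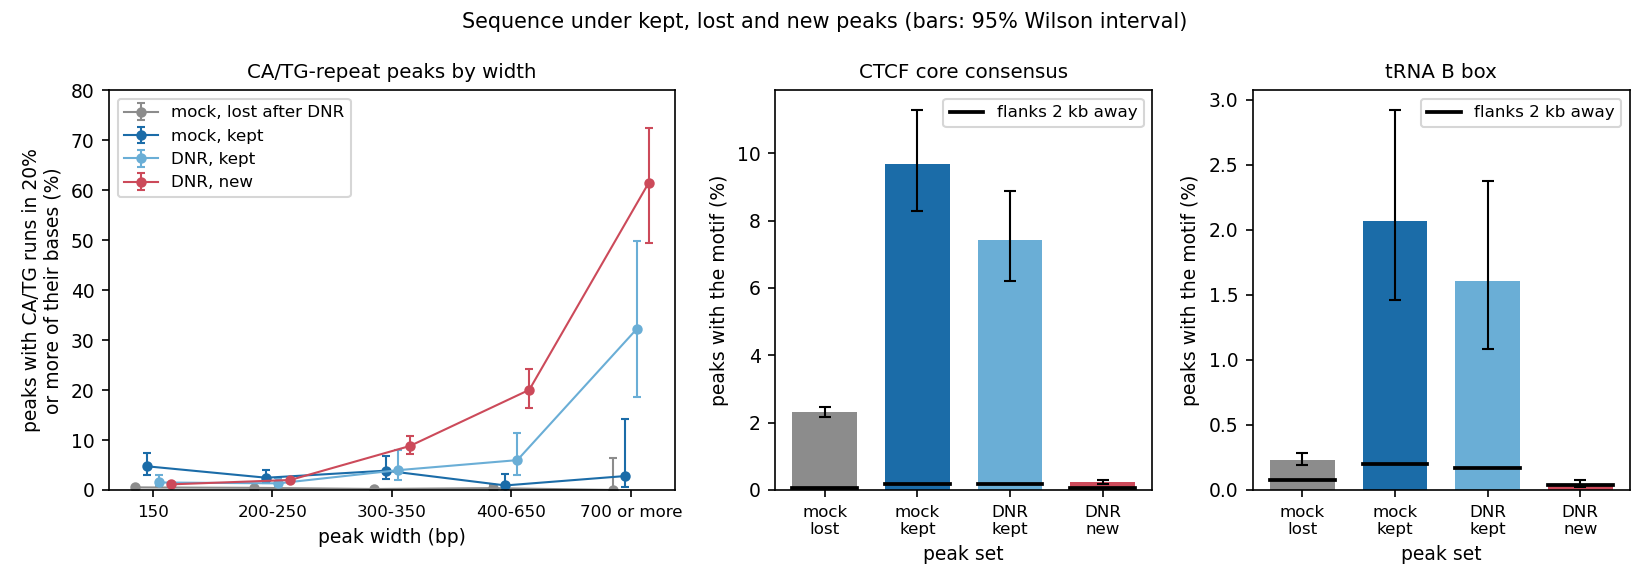
Percent of lost mock, kept mock, kept DNR and new DNR peaks with CA/TG runs in 20% or more of their bases, by peak width (left), with the CTCF core consensus (middle) and with the tRNA B box (right), with Wilson intervals and black lines for the flanks. CA/TG-rich peaks reach 61.5% of the widest new DNR peaks, while the CTCF share is highest in kept mock peaks (9.69%) and lowest in new DNR peaks (0.232%).

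Among the 5 widest new DNR peaks were 1900 bp near RTP5 (chr2:242806351-242808250), where CA/TG runs made up 66.3% of bases, 1700 bp on chr13:31416501-31418200, with 46.4%, and 1700 bp on chr5:3322951-3324650, with 40.5%. Another, 1650 bp on chr6:58777401-58779050, held 2.18% and lay 1596 kb from the nearest coding TSS. The widest kept ones were 3150 bp near PPP6R2 (chr22:50775601-50778750), with 65.8%, and 2700 bp on chr12:132640201-132642900, with 59.0%. Those in an intron of GRM4 (1850 bp, 56.8%), near CPN2 (1700 bp, 71.6%) and in an intron of BCL2 (1600 bp, 48.5%) followed. Among coding promoters CA/TG-rich peaks were rare, since 9 of the 974 gained genes (0.924%) had one as their widest. With these peaks left out, 686 genes kept, 4302 lost and 969 gained a promoter peak.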

How the data were processed

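SUMO-2/3 ChIP-seq was performed on mock- and DNR-treated HL-60 cells. The authors sequenced single-end reads of 50 bases, aligned them to hg19 with CASAVA 1.8.2 (version per the submitters' processing notes), and scaled the libraries and subtracted the input with Pasha. They called peaks with WigPeakCaller at a threshold of 32, gaps of at most 100 bp and runs longer than 100 bp. Per peak, the deposited lists give a position (chromosome, start and end) and no height or read count. The Ara-C list and the inputs were not used here.

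A gene was given each peak that shared at least 1 bp with its window, and places were set by the peak's midpoint. Genes were from GENCODE v44 as lifted to GRCh37 (19811 coding genes, 55870 distinct TSS), and positions are 1-based. Overlaps were checked against bedtools 2.31.1 with 0 mismatches. A gene was CpG-rich when the 500 bp on each side of its 5′-most TSS had over 50% GC and a CpG observed-to-expected ratio over 0.6. Matched windows 2 kb to either side served as flanks. The overlap, promoter window, motif and composition steps were tested on simulated data. Python 3.11.15, numpy 2.4.6, scipy 1.17.1 and matplotlib 3.10.9 were used. With 1 library per condition, no test was made.

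Members and gene lists were chosen with earlier results of these data known. Named genes were the 7 the study followed, the 8 widest kept, lost and gained promoters of at least 200 bp, up to 4 genes of each class per family by widest peak, and the 5 widest new and kept DNR peaks, of which a few genes and 1 peak are not reported here. Printed CTCF examples, the CA/TG measure and the tRNA B box were added later. A share of soft-masked repeats was planned but not run, because the reference carries no soft masking. Alternatives were other widths, windows and overlap rules.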

Additional observations from a re-analysis of the deposited data

How the results depend on the processing

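All 12 alternative settings together gave 322 values for 136 results. The loss of more promoter peaks than were gained held over all coding genes in each setting run for it. In families it did not always, since olfactory receptors had 9 lost and 16 gained over all peaks but 5 and 5 at 200 bp, and protocadherins 5 and 4 but 1 and 2. Losses and gains were also equal for ion channels over all peaks (8 and 8) and with the upstream window (7 and 7), for MHC genes at 200 bp (2 and 2) and upstream (3 and 3) and for HOX genes upstream (2 and 2), and olfactory receptors upstream had 3 and 8. The intron share of new DNR peaks, above the genome's 41.2%, fell under it at 200 bp and by any overlap. At 200 bp or more, 846 genes had a DNR peak, 320 kept, 526 gained and 155 had overlapping peaks, with 9.24% of mock genes kept, 3.22% of other genes gained, a gap of 6.02 points, 3.71% of mock and 5.41% of DNR peaks kept and a peak number change of -31.2%. New DNR peaks were then at promoters in 4.71%, exons in 4.51%, introns in 41.0% and noncoding genes in 16.0%, and the CTCF consensus was in 3.97% of lost and 0.377% of new peaks and the tRNA B box in 0.451% of lost mock, 3.30% of kept mock and 2.53% of kept DNR peaks. At 300 bp or more, 1326 genes had a mock and 144 a DNR peak, 53 kept, 1273 lost, 91 gained and 38 overlapped, with 4.0% of mock genes kept, 0.492% of others gained, a gap of 3.50 points and 8.60% of DNR peaks kept. With a window from 2 kb upstream to the TSS, 453 genes kept, 11.1% of mock genes kept and 4.68% of others gained. From 1 kb upstream to 1 kb downstream these shares were 11.4% and 5.17% with a gap of 6.24 points, and with the 5′ end of each gene alone 11.1% and 5.11% with 5.96 points. Requiring an overlap of 50% kept 2.32% of mock and 3.29% of DNR peaks, and allowing 500 bp kept 7.11% and 9.25%. Without the dense part of chromosome 8 around MYC, 2.85% and 3.78% were kept and new peaks were in introns in 43.0%, noncoding genes in 13.9% and between genes in 34.3%. Placing peaks by any overlap put 5.92% in exons and 40.4% in introns. Leaving out CA/TG-rich peaks, and MYC, was chosen after seeing the data. The causes of these moves were not tested, beyond the smaller peak sets and windows by construction.

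No paired analysis was possible because mock and DNR are represented by 1 pooled library apiece. Depth per library is unknown, so the drop in peak number and the loss at promoters cannot be told apart from lower sensitivity in the DNR library, and culture-to-culture variation was not measured.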
